A study of Mus musculus with 11 samples.

Results

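Gingival epithelium from mice whose ligature had been taken off was compared with naive gingival epithelium by RNA sequencing, as 8 of the 11 libraries of the series. The members were chosen by title, 4 libraries titled Removal and 4 titled Naive, and by the 178 rows of the deposited table that carry a gene name. All groups are described as male B6 mice, but Y-linked Usp9y was read in removal replicate 1 only, so the sex of the animals is uncertain. In the removal group a silk thread was placed around the second molars of the upper jaw and taken off on day 3; the naive group is titled and labelled naive, with no treatment named beyond that, and 3 libraries with the ligature still in place served to share the estimate of spread. The day on which tissue was collected is not given, so the time between removal and sampling is unknown, as is whether each library stands for another animal. P-values therefore measure the spread between these libraries, which may be technical. In every group the epithelium was lifted from the gingiva after Dispase digestion, and polyA RNA was sequenced with a strand-preserving kit. The label of epithelium could not be checked against its defining markers, since 0 of the 10 epithelial marker genes on the list used here were in the table; Krt10, a keratin of differentiating epithelium, was the transcript read in the largest numbers among those described below.

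The gingival epithelium is the barrier between the oral bacteria and the tissue that anchors the teeth, and a ligature holds plaque against it. Epithelial cells answer injury and microbes with a first wave of immediate early transcripts, among them the AP-1 subunits of the Fos, Jun and ATF families and the EGR factors, which need no new protein for their induction and decay quickly. Inhibitors induced in the same wave, such as Nfkbia, Socs3, Dusp1 and the RNA-destabilising Zfp36, damp the response, and EGF receptor ligands such as Hbegf and Areg drive repair.

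Removal replicate 1 is shown apart from removal replicates 2, 3 and 4 throughout. An earlier look at these data had found it to differ from them, so the split was chosen with results known. P-values that rest on this split describe these libraries and are no independent test. Raw counts over the table summed to 282274 to 503570 per library, which is a small part of each library and not its depth; normalised counts are raw counts divided by the deposited size factor of the library (0.757 to 1.21). The deposited batch correction divided the libraries in 2 sets. Set A contained 3 removal libraries (replicates 2, 3 and 4) together with the first and second naive and the first ligature library; set B contained removal replicate 1 together with naive replicates 3 and 4 and the remaining ligature libraries. Removal replicate 1 was the only removal library of set B, so what belongs to that library and what belongs to its set cannot be told apart. On the first principal component of the log2 normalised counts, with a pseudocount of 1 (56.5% of the variance), the naive libraries lay between -6.64 and -4.77 and the ligature libraries between 6.85 and 8.55. Removal replicates 2, 3 and 4 lay at -2.37, -0.57 and -2.24, and removal replicate 1 at 6.04, beside the ligature libraries. By distance to the group means of each gene, removal replicate 1 was closer to ligature than to naive in 137 of 178 genes, removal replicate 3 in 118, and removal replicates 2 and 4 in 61 and 65. Measured within the library's own set these numbers were 134, 129, 71 and 78. The genes of the table appear to have been selected for differing between these groups, as described below. A component that parts naive from ligature libraries was therefore fixed in advance, and the positions and distances hold for these genes only.

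**Figure D1:**
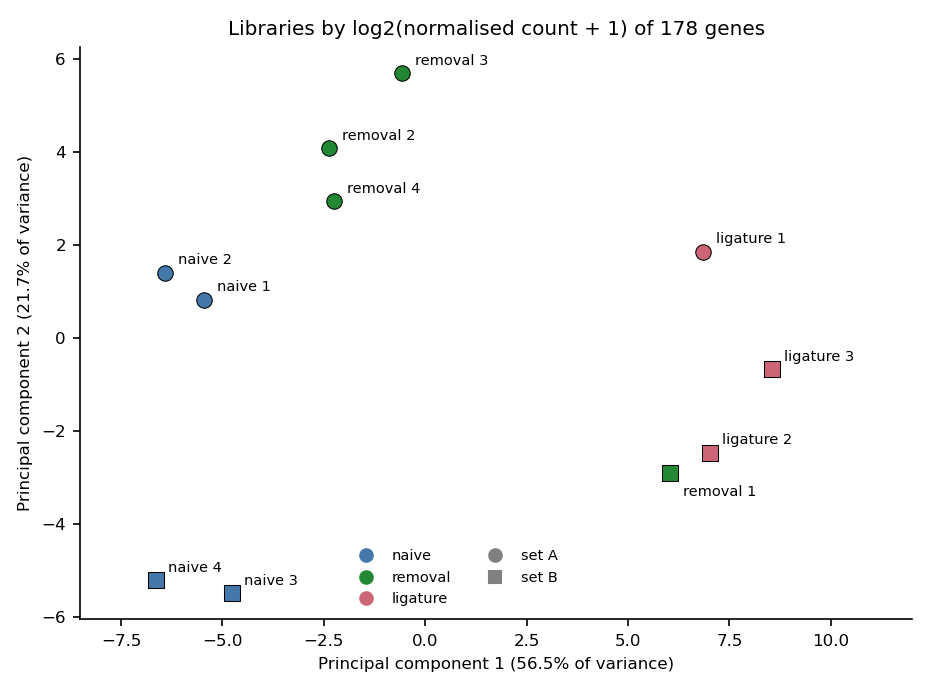
Principal components 1 and 2 of log2(normalised count + 1) over the 178 genes, 1 point per library, with colour for the group and circles or squares for set A or B of the deposited batch correction. Removal replicate 1 lies at 6.04 on component 1, beside the ligature libraries and below their range. Removal replicates 2, 3 and 4 lie between -2.37 and -0.57, between the naive and the ligature libraries on that component. The genes appear to have been selected on these groups, so the gap between naive and ligature libraries is no result.

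With all 4 removal libraries, 43 genes were lower and 23 higher than in naive epithelium. That is 37.5% of the 176 genes tested, 24.4% lower and 13.1% higher, called at an adjusted p under 0.05 by edgeR's quasi-likelihood test. The table appears to hold only genes selected on these groups, since the smallest unadjusted p of each of its 178 genes for ligature or removal against naive was at most 0.0103 in DESeq2 with a term for the library set. These shares are therefore not shares of the transcriptome, and each list count below is to be read against them. Adjusted p-values over genes selected on these same libraries do not keep their stated error rate. The calls here and below are thus descriptions of these libraries. The falls were larger than the rises: the called lower genes had a median log2 fold change of -0.59 (-3.28 to -0.27) and 10 fell below -1, whereas the called higher genes had a median of 0.40 (0.26 to 0.61). Over all genes tested the median was -0.17. Relative levels depend on the scaling. TMM factors (trimmed means of the log ratios between libraries, here over the table alone) moved that median to 0.03 and called 50 genes higher and 22 lower, and median-of-ratios factors called 40 higher and 28 lower. In 59 of the 66 called genes the 4 removal and the 4 naive libraries did not overlap, against 77 of all 178 genes (43.3%). All 66 had the same direction in set A and in set B, but they were called on these same libraries, so this is no independent check. Set B holds 1 removal library. Within set A the same test called 46 genes, 12 higher and 34 lower, and 30 of them were among the 66. Leaving out removal replicate 1 left 48 calls, and leaving out removal replicate 3, naive replicate 4 or naive replicate 1 left 38, 42 and 43. With a term for the library set 126 genes were called, 40 higher and 86 lower.

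The 4 removal libraries did not contribute evenly. Among the 43 called lower genes the lowest removal library was replicate 3 in 25, replicate 1 in 17 and replicate 2 in 1. Among the 23 called higher genes the highest was replicate 3 in 17, replicate 1 in 4 and replicates 2 and 4 in 1 each. Each removal library nonetheless lay outside the naive range in most of these genes: below it in 43, 43, 42 and 39 of the 43 lower genes for replicates 1 to 4, and above it in 23, 22, 23 and 21 of the 23 higher genes. In 39 of the 66 genes removal replicate 1 lay inside the range of the other removal libraries. These counts describe genes that were called on the same libraries.

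Transcripts of many immediate early and rapid-response regulators were lower after ligature removal than in naive epithelium. Of 71 such genes on 3 lists (AP-1 and ATF factors, EGR factors with their NAB corepressors, and other rapid-response regulators) 27 were in the table, 18 were called lower and 0 higher, where 24.4% of all genes tested were called lower. Their median log2 fold change was -0.44, against -0.17 over all genes tested. In 17 of the 27 every removal library lay below every naive library, against 27.5% of all 178 genes. With TMM factors 11 of the 27 were called lower at a median of -0.24, without removal replicate 1 the number was 14, and with a term for the library set it was 23. With the ligature in place 26 of the 27 were called lower than naive, at a median of -0.69. Of all 176 genes tested 100 were, and the median was -0.38. Between removal and ligature, 2, 2 and 6 genes of the 3 lists in turn were called higher after removal and 0, 1 and 0 lower. Of all genes tested 30 were higher and 5 lower. Both the lists and their members were chosen with earlier results of these data known.

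All 6 measured AP-1 and ATF factors fell (Atf3, Fosb, Junb, Fos, Jun and Jund); 3 of them, Atf3, Fosb and Junb, were also called with TMM factors. Atf3, a stress-induced member of the ATF family, stood at 1160.4, 1511, 1936 and 2316 normalised counts in naive replicates 1 to 4 and at 746 in removal replicate 1 and 622, 419.6 and 905 in removal replicates 2 to 4. The highest removal library thus lay under the lowest naive one, and Atf3 was 1731 ± 503 (SD, n = 4) in naive and 673 ± 205 (n = 4) after removal, a log2 change of -1.36 ± 0.26 (SE; edgeR adjusted p = 0.00778). Fosb, a Fos family subunit, read 17402, 14103, 15787 and 17917 in the naive libraries, 9002 in removal replicate 1 and 8595, 7556 and 12188 in replicates 2 to 4 (log2 change -0.80 ± 0.18, edgeR adjusted p = 0.0119). Here too the groups were separate, with removal replicate 4 nearest to the naive libraries. Junb, a Jun family subunit, read 9661, 11155, 9799 and 11023 in naive and 6788, 7964, 6514 and 8065 in removal replicates 1 to 4, and fell by 0.51 ± 0.10 on the log2 scale (edgeR adjusted p = 0.00778). Its log2 change was -0.47 in set A and -0.62 in set B. Fos, Jun and Jund fell by 0.44, 0.38 and 0.29. The Fos call was lost in 2 of 11 fits that left out 1 library, as was that of Jun, and the Jund call was lost in 6. Neither Fos, Jun nor Jund was called with TMM factors (log2 changes -0.24, -0.18 and -0.09).

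Of the EGR list, 3 of 8 genes were in the table, and Egr1 and Arc fell. Egr1, a zinc finger factor induced by growth signals and injury, read 17016, 17944, 16956 and 19550.4 in the naive libraries and 10964, 12959, 10473 and 14508 in removal replicates 1 to 4. Its log2 change was -0.55 ± 0.12 (edgeR adjusted p = 0.0119), at -0.70 for removal replicate 1 and -0.50 for replicates 2 to 4. Arc, an activity-induced gene best known from neurons, read 174, 275, 234 and 216 in naive, 48.0 in removal replicate 1, and 152, 79.6 and 99.7 in replicates 2 to 4. Arc was lower in every removal library than in any naive one, and removal replicate 1 was the lowest of all (log2 change over the 4 libraries -1.24 ± 0.30, edgeR adjusted p = 0.0124). Nab2, an EGR-bound corepressor, was 553 ± 58.8 in naive and 524 ± 42.0 after removal and did not pass the test (log2 change -0.08, 95% interval -0.36 to 0.20).

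Among the 18 measured genes of the remaining rapid-response list, 10 were called lower (Phlda1, Ccn1, Gadd45g, Btg2, Plk3, Gadd45b, Ier3, Zfp36, Ier2 and Ifrd1) and 0 higher. Btg2, an antiproliferative cofactor of mRNA decay, read 5157, 5307, 5357 and 5624 in the naive libraries, which spread little, against 3019 in removal replicate 1 and 4305, 3148 and 3803 in replicates 2 to 4. Its log2 change was -0.59 ± 0.12 (edgeR adjusted p = 0.00778). Gadd45g, a growth arrest and DNA damage inducible gene, read 651, 633, 712 and 757 in naive and 423, 507, 316 and 465 in removal replicates 1 to 4 (log2 change -0.69 ± 0.15, edgeR adjusted p = 0.0119). In both genes no removal library reached the naive range. Zfp36, which encodes a protein that destabilises cytokine mRNAs, fell by 0.48, and the early response genes Ier2 and Ier3 fell by 0.39 and 0.49. Calls on Ccn1, Plk3 and Ifrd1 were lost in 6, 5 and 8 of 11 fits that left out 1 library. The 8 members that did not pass were Ier5, Klf6, Dusp1, Zfp36l1, Trib1, Plk2, Rhob and Cebpb; the phosphatase gene Dusp1 stood at -0.34 (95% interval -0.65 to -0.03, edgeR adjusted p = 0.0702) and Klf6 at -0.16 (-0.40 to 0.08).

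**Figure D2:**
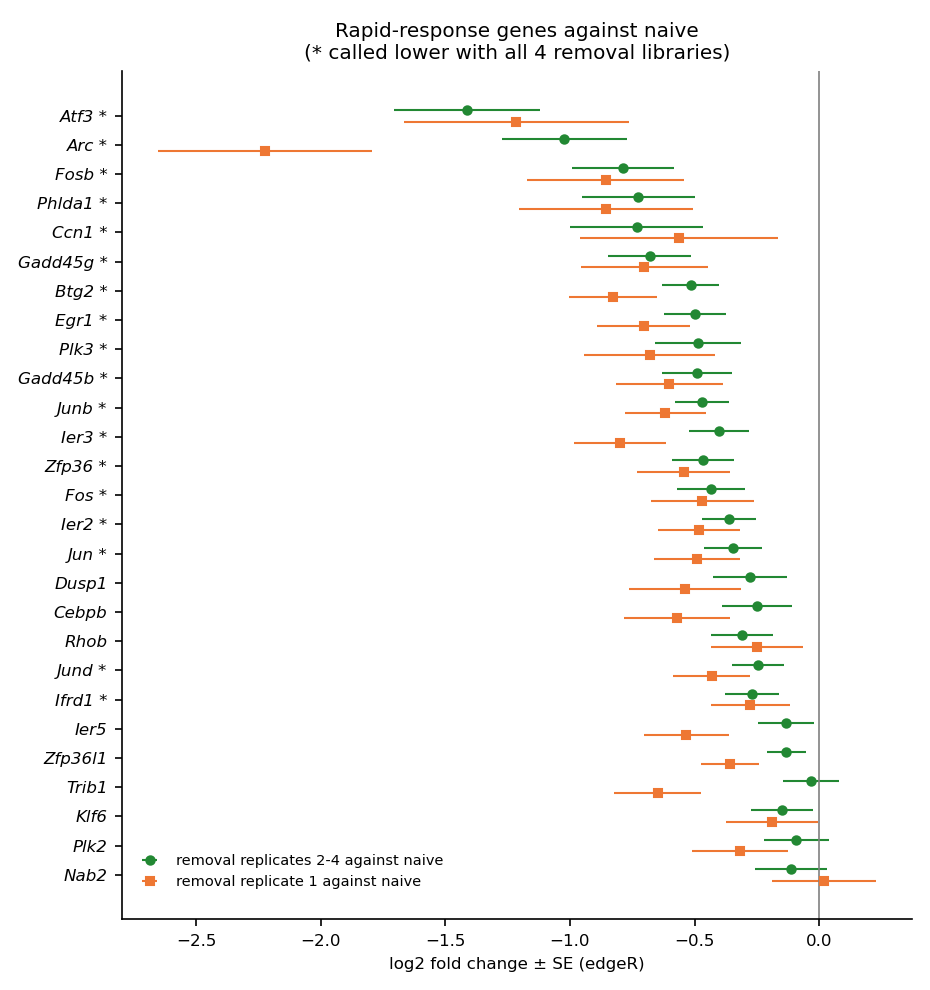
Log2 fold change against naive with its SE from edgeR (x axis) for the 27 rapid-response genes in the table (y axis), with green circles for removal replicates 2 to 4 and orange squares for removal replicate 1, which is a single library; an asterisk marks the 18 genes called lower with all 4 removal libraries. Arc shows the widest gap between both estimates, -2.22 and -1.02, and Nab2 lies near 0.

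The median log2 change of the 27 genes was -0.56 for removal replicate 1 and -0.40 for replicates 2 to 4, both against the same naive libraries, beside -0.35 and -0.13 over all genes tested. The median log2 difference between removal replicate 1 and replicates 2 to 4 was -0.14 in the 27 genes and -0.13 over all genes tested. With TMM factors the median over all genes tested was 0.03. In 10 of the 27 removal replicate 1 lay below all other removal libraries, against 82 of all 178 genes, and in 16 removal replicate 3 was the lowest. Trib1, a pseudokinase gene, stood near the naive level in replicates 2 to 4. It read 809, 1009, 853 and 877 in naive and 901, 885 and 816 in removal replicates 2 to 4, but 566 in removal replicate 1. The difference between removal replicate 1 and the others was -0.62 ± 0.18 on the log2 scale (edgeR unadjusted p = 0.00522, adjusted p = 0.214), so it did not pass the test.

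Promoter sequences from RefSeq were searched because rapid-response genes share short control motifs. The windows run 250 bases up to the annotated start on mouse build GRCm38.p6, whereas the counts refer to GRCm39, and 134 of the 178 genes had one, 29 of them called lower and 20 called higher. The motifs were the cyclic AMP response element (CRE) TGACGTCA, the AP-1 site TGANTCA, the EGR site GCGNGGGCG and the TATA box TATAAA, on both strands; CRE and AP-1 sites share their ends, but a CRE match is not an AP-1 match. A CRE stood in 6 of the 134 genes (Areg, Btg2, Ccer2, Dusp1, Plk2 and Ppp1r15a) and in 1.55% of all 32851 windows. An EGR site stood in 19 genes and 4.7% of windows, an AP-1 site in 9 and 6.75%, and a TATA box in 17 and 12.37%. The 134 were counted per gene and the reference per window, so both shares are in unlike units. Of the genes with a match, 2 with a CRE, 6 with an EGR site, 0 with an AP-1 site and 7 with a TATA box were called lower. Those called higher were 0, 5, 1 and 1. Shown are Btg2, which has both a CRE and an EGR site, Ppp1r15a, with a CRE next to its start, Fosb, the AP-1 gene with an EGR site, and Areg, whose level separates removal replicate 1 from the others. Each is given 5′ to 3′ on the strand of its gene with the matches in capitals, from chr1:134079156-134079405 (minus strand), chr7:45526269-45526518 (minus), chr7:19310046-19310295 (minus) and chr5:91139349-91139598 (plus). In Btg2 the CRE begins 166 and the EGR site 131 bases before the start, in Ppp1r15a the CRE begins 12 bases before it, in Fosb the EGR site 50, and in Areg the CRE 61 and the TATA box 31. A match describes the letters of the window and does not show a factor bound there.
Btg2: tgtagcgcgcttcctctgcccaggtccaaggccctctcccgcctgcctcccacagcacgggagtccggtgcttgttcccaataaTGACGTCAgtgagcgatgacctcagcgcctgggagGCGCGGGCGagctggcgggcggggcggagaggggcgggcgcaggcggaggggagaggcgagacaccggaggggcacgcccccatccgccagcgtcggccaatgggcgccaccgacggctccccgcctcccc
Ppp1r15a: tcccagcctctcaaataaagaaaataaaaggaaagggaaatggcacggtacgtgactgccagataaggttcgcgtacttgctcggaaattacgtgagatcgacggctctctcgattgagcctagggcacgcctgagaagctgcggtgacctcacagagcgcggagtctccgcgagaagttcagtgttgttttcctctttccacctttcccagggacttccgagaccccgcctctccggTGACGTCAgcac
Fosb: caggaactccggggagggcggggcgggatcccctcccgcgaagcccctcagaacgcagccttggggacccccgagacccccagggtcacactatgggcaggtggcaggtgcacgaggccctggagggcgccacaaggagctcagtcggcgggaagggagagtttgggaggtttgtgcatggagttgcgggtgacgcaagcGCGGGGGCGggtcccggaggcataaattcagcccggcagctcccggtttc
Areg: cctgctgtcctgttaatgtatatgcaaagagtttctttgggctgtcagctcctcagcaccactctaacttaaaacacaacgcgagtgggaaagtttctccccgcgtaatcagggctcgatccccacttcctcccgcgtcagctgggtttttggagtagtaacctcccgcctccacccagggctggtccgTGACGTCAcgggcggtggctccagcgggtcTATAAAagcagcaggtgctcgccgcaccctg

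Among EGF receptor ligands Hbegf passed the test and Areg did not. Hbegf, an EGF receptor ligand released at wound edges, read 1284, 1812, 1433 and 1913 in the naive libraries, 673 in removal replicate 1 and 1146, 924 and 1177 in replicates 2 to 4. Every removal library lay below every naive library, and the log2 change was -1.26 ± 0.27 for removal replicate 1 (edgeR adjusted p = 0.0186) and -0.57 for replicates 2 to 4 (adjusted p = 0.0292). The ligand gene Areg, with its CRE and TATA box shown above, read 112, 159.8, 124 and 127 in naive and 122, 86.1 and 122 in removal replicates 2 to 4, but 50.2 in removal replicate 1, next to the 42.8 to 47.7 of the ligature libraries. Areg was thus called in removal replicate 1 (-1.38 ± 0.34, edgeR adjusted p = 0.0343) and not in replicates 2 to 4 (-0.25, adjusted p = 0.331); the difference between both, -1.13, had an unadjusted p of 0.00695 and an adjusted p of 0.214 in edgeR. Hbegf and Areg were the only 2 of 11 genes of the EGF receptor list in the table.

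Of 3 measured genes on the NF-kappaB and Toll-like receptor list of 32, Nfkbia fell. It encodes the inhibitor that holds NF-kappaB in the cytoplasm, and it read 3310.3, 4431, 4048 and 4744 in naive against 2603, 3031, 2507 and 2861 in removal replicates 1 to 4, a log2 change of -0.59 ± 0.11 (edgeR adjusted p = 0.00778). Nfkbiz, a nuclear NF-kappaB cofactor, was lowest in removal replicate 1, at 1582 against 2143 to 2304 in the other removal libraries and 2237 to 2727 in naive. Removal replicates 2 and 4, at 2220 and 2143, also lay below the naive range. The ligature libraries read 1388, 1640 and 1128. Myd88, the adaptor of Toll-like receptors, was 871 ± 98.5 in naive and 734 ± 77.0 after removal and did not pass the test (log2 change -0.25, 95% interval -0.50 to 0.01). Both measured genes of the cytokine and prostaglandin list fell with all 4 removal libraries; with TMM factors Socs3 was not called (edgeR adjusted p = 0.0503), and neither was called in removal replicate 1 alone (adjusted p = 0.0913 for Ptgs2 and 0.146 for Socs3). Ptgs2, the inducible prostaglandin synthase, read 39.0, 66.8, 107 and 90.5 in naive and a narrow 29.0, 30.9, 27.2 and 32.1 in removal replicates 1 to 4. Socs3, the feedback inhibitor of STAT3 signalling, read 1486, 1333, 2307 and 2130.0 in naive and 1162, 884, 873 and 1105 after removal. The log2 changes of Ptgs2 and Socs3 were -1.38 and -0.64 for removal replicate 1 and -1.32 and -0.93 for replicates 2 to 4. Removal replicate 1 lay inside the range of the other removal libraries in Ptgs2 and was the highest of the removal libraries in Socs3. Ptgs2 and Socs3 were higher in naive set B (replicates 3 and 4) than in naive set A, and their log2 changes within set A were -0.81 and -0.56, against -1.76 and -0.93 in set B; the difference between the sets did not pass the test (edgeR adjusted p = 0.613 and 0.913).

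**Figure D3:**
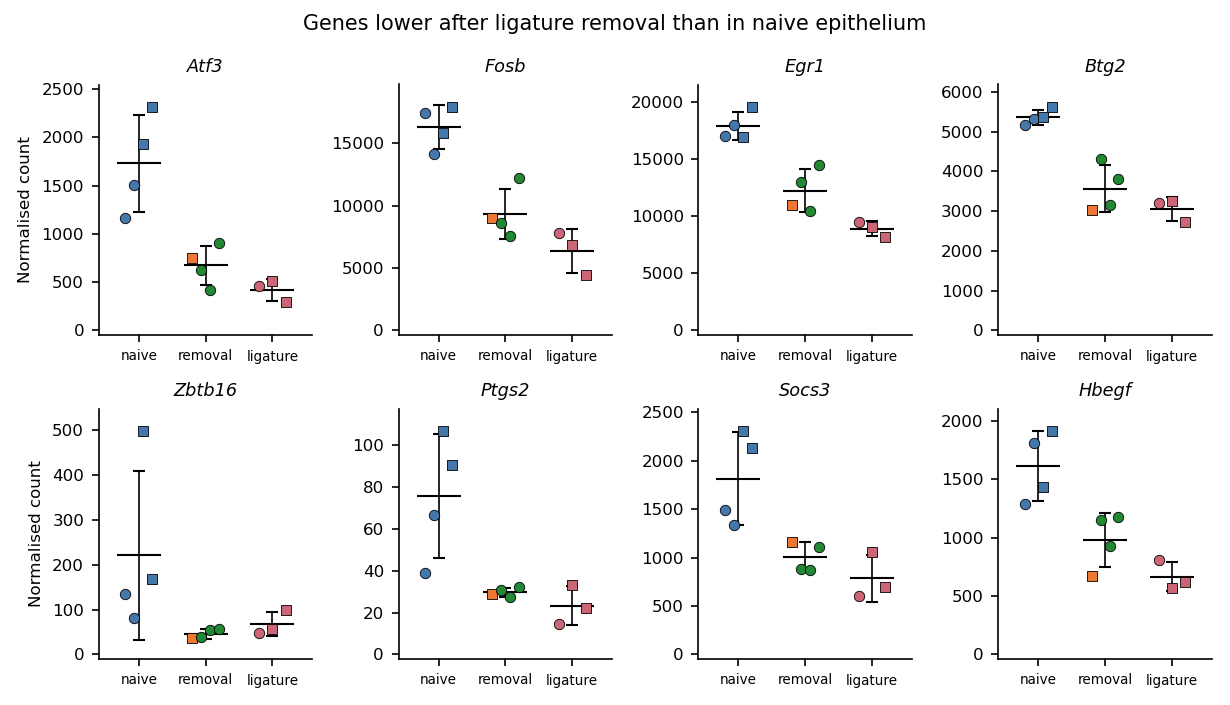
Normalised counts per library of 8 genes called lower after removal, with naive in blue, removal replicate 1 in orange, removal replicates 2 to 4 in green and ligature in rose, circles for set A and squares for set B; horizontal lines are group means and bars the SD over libraries (n = 4, 4 and 3). In each panel all 4 removal libraries lie below the lowest naive library, as in Btg2, where removal spans 3019 to 4305 and naive 5157 to 5624.

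Several of the largest falls were in genes read at low levels. Zbtb16, a zinc finger repressor that responds to glucocorticoids, read 135, 82.3, 499 and 169 in naive and 35.7, 38.1, 54.5 and 56.8 in removal replicates 1 to 4. The naive libraries spread widely, with replicate 3 far above the rest, while the removal libraries lay close together and below all of them (log2 change -2.24 ± 0.50, edgeR adjusted p = 0.0119). With the ligature in place Zbtb16 stood at 67.6 ± 27.2 (n = 3), and the log2 difference between removal and ligature was -0.54 with a 95% interval of -1.70 to 0.62. Iqcn read 62.2, 78.5, 111 and 104 in naive and 19.0, 31.9, 24.0 and 30.5 after removal (log2 change -1.74 ± 0.29, edgeR adjusted p = 0.00778). Fam71a read 21.1 and 25.2 in naive replicates 1 and 2 and 81.9 and 148 in replicates 3 and 4, against 3.35, 7.21, 3.27 and 13.2 after removal. Its log2 change of -3.28 over all libraries was -1.48 in set A and -5.06 in set B, where removal replicate 1 had 3 raw counts; the difference between the sets did not pass the test (edgeR adjusted p = 0.369). Slc34a3, a sodium phosphate cotransporter gene best known from kidney, was 90.7 ± 7.42 in naive and 37.7 ± 17.0 after removal, and its call was lost in 7 of 11 such fits and with TMM factors. Tmem95 fell by 0.83 ± 0.23, with 116 in removal replicate 1 and 213 to 253 in the other removal libraries.

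Further called genes came from small lists. Ppp1r15a, the phosphatase subunit that reverses the translational stress response, read 1386, 1510.3, 1779 and 1809 in naive and 1081, 1232, 929 and 1195 after removal. Its log2 change was -0.55 (edgeR adjusted p = 0.0119), beside -0.49 with the ligature in place against the same naive libraries, and the direct difference between removal and ligature was -0.05 (95% interval -0.34 to 0.23). Adm, the vasodilator adrenomedullin, and Vegfa, the vascular growth factor, were the 2 called genes of 3 measured on the hypoxia and vascular list, at log2 changes of -0.61 and -0.32. Vegfa read 1462, 1330.1, 1343 and 1319.8 in naive and 1019, 1154, 1174 and 1027 after removal. Ligature libraries, at 1079 to 1553, spanned both ranges. Vegfa lost its call in 8 of 11 fits that left out a library and Adm in 6, and both lost it with TMM factors. Defb14, a beta-defensin, was 222 ± 14.4 in naive and 154 ± 33.4 after removal (log2 change -0.53 ± 0.17, edgeR adjusted p = 0.0298). Defb14 was not called in removal replicates 2 to 4 (-0.46, adjusted p = 0.0730) or with TMM factors (adjusted p = 0.108).

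Genes that were higher after removal rose by at most 0.61 on the log2 scale. The 10 with the largest rises by the naming rule were Ptpn4, Vma21, Neil3, Lnpk, Msi1, Il12rb2, Arhgap18, Map3k2, Col8a1 and Ube3a. Ptpn4, a tyrosine phosphatase gene, read 416, 359, 375 and 369 in naive, 559 in removal replicate 1 and 543, 701 and 516 in replicates 2 to 4. No library of either group overlapped, and the rise was 0.61 ± 0.11 on the log2 scale (edgeR adjusted p = 0.00778), at 0.56 for removal replicate 1 and 0.63 for replicates 2 to 4. Vma21, which assembles the proton-pumping vacuolar ATPase, read 305, 264, 267 and 317 in naive and 456, 383, 483 and 407 in removal replicates 1 to 4 (log2 change 0.58 ± 0.15, edgeR adjusted p = 0.0124). Neil3, a DNA glycosylase of proliferating cells, read 127, 117, 114 and 125 in naive and 189.8, 154, 205 and 172 after removal (0.58 ± 0.15, edgeR adjusted p = 0.0124). In all 3 genes removal replicate 1 lay within the range of the other removal libraries. Calls on Lnpk, Msi1, Il12rb2 and Arhgap18 were lost in 5, 9, 7 and 10 of 11 fits that left out a library. Arhgap18 was high in removal replicate 1, at 261 against 183 to 194 in the other removal libraries and 122 to 164 in naive, and in removal replicates 2 to 4 its log2 change was 0.33 and not called.

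Proliferation genes rose only in part. Of 5 measured genes on the mitosis and chromosome maintenance list of 37, Mki67 and Neil3 were called higher, beside 13.1% of all genes tested; with TMM factors 4 of the 5 were, and Neil3 was called whichever library was left out. The Mki67 call was lost in 6 of 11 such fits, without any 1 of the naive libraries and without removal replicate 1 or 3. Mki67, the marker of cycling cells, read 3653, 3365, 3358 and 3328 in naive and 4345, 3865, 5229 and 3791 in removal replicates 1 to 4, so that removal replicate 3 stood highest and the groups did not overlap. Aspm, a spindle pole gene, was 506 ± 32.4 in naive and 622 ± 70.2 after removal (log2 change 0.30 ± 0.11, edgeR adjusted p = 0.0508). The motor Kif14 and the cytokinesis regulator Racgap1 stood at 0.18 and 0.25 and did not pass the test. Bulk libraries cannot tell more cycling cells from more transcript per cell, nor fewer cells of a type from less RNA per cell, for any gene described here.

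**Figure D4:**
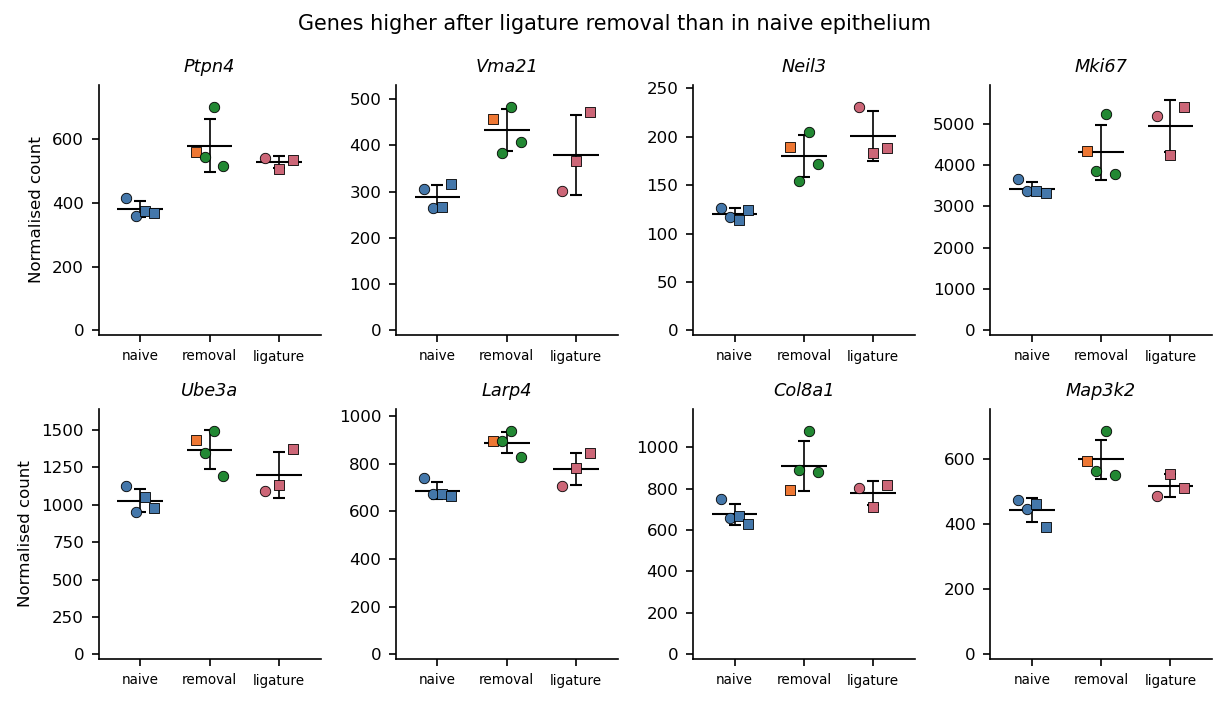
Normalised counts per library of 8 genes called higher after removal, with colours, symbols, means and SD bars as for the genes called lower (naive in blue, removal replicate 1 in orange, removal replicates 2 to 4 in green, ligature in rose). All 4 removal libraries lie above the highest naive library in each panel, and in Larp4 and Ube3a the ligature means, 778 and 1197, lie between those of naive, 687 and 1028, and removal, 888 and 1368.

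A group of modest rises after removal was seen in genes whose change with the ligature in place did not pass the test. With the ligature in place 85.2% of the genes tested were called against naive, and 19.9% were called between removal and ligature. The genes were Larp4, Ube3a, Socs4, Exoc5, Map3k2, Col8a1 and Cggbp1, singled out after their values were seen. Exoc5, a subunit of the exocyst that tethers secretory vesicles, read 838, 836, 766 and 852 in naive and 990.4, 1031, 1049 and 1017 in removal replicates 1 to 4, a log2 rise of 0.31 ± 0.08 (edgeR adjusted p = 0.0139). Its ligature libraries read 810.3, 791 and 937. Socs4, of the suppressor of cytokine signalling family, read 645, 547, 557 and 556 in naive and 731, 712, 748 and 733 after removal, a log2 rise of 0.34 ± 0.09 (edgeR adjusted p = 0.0124), with 595, 631 and 664 in the ligature libraries. Cggbp1, which binds CGG repeats, read 1040.1, 1040.5, 992 and 1059 in naive and 1272, 1219, 1236 and 1211 after removal, with 990.1, 1052 and 1139 in the ligature libraries. In these 3 genes the removal libraries formed a tight group above all naive libraries. Removal replicate 1 was the lowest of them in Exoc5 and the highest in Cggbp1, and lay inside the range of the others in Socs4. Larp4, a poly(A) RNA binding protein gene, Ube3a, a ubiquitin ligase gene, Map3k2, a MAP kinase kinase kinase gene, and Col8a1, a collagen VIII chain gene, rose by 0.37, 0.41, 0.43 and 0.43, and stood at 0.18, 0.22, 0.22 and 0.20 with the ligature in place. The direct test between removal and ligature passed in none of the 7 (edgeR adjusted p = 0.0505 for Exoc5, 0.0647 for Cggbp1, 0.108 for Socs4 and 0.151 to 0.205 for the others), and both comparisons with naive share the naive libraries. The log2 difference from ligature was 0.27 for Exoc5 (95% interval 0.08 to 0.47) and 0.19 for Larp4 (-0.01 to 0.40). Only the Cggbp1 call among these 7 was lost when single libraries were left out (without naive replicate 3 or without removal replicate 1), and all 7 were also called with TMM factors.

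Removal replicates 2, 3 and 4, taken without replicate 1, gave 50 calls against naive, 18 higher and 32 lower (28.4% of 176 genes tested, 10.2% higher and 18.2% lower). With 3 libraries the count was unsteady: it was 0 in edgeR without naive replicate 4 or without removal replicate 3 (58 and 52 genes at an unadjusted p under 0.05), 7 without removal replicate 2, and 61 at most. DESeq2 called 58 genes with all of these libraries. Krt10, Angptl4, Adamts1 and Matn4 were called in these 3 libraries and not with all 4. These removal libraries are all of set A, whereas naive replicates 3 and 4 are of set B, so set and removal are partly mixed here. Angptl4, Adamts1 and Matn4 read higher in naive set B than in naive set A, and Krt10 read lower. Adamts1 read 488 and 504 in naive set A and 1124 and 801 in naive set B. With a set term and all 4 removal libraries its log2 change was -0.51 (edgeR adjusted p = 0.0236). Krt10 read 109641, 91942, 90595 and 81959.7 in naive and 149110.4, 162606 and 129809.7 in removal replicates 2 to 4, all above the naive libraries, a log2 rise of 0.65 (edgeR adjusted p = 0.0270). Removal replicate 1, at 88347, lay inside the naive range, and the difference between it and the others was -0.74 ± 0.28 (edgeR unadjusted p = 0.0232, adjusted p = 0.291). Ligature libraries read 187178, 116428 and 133288. Ugcg, the glucosylceramide synthase of the skin barrier and the other measured gene of the differentiation list, stood at -0.01 with all 4 removal libraries (95% interval -0.24 to 0.22). With TMM factors both Krt10 and Ugcg were called higher with all 4 libraries (0.70 and 0.19).

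Removal replicate 1 alone against naive gave 22 calls, 5 higher and 17 lower (12.5% of 176 genes tested, 2.84% higher and 9.66% lower); its spread is borrowed from the other groups, since it is 1 library. It lay below all naive libraries in 98 of the 178 genes (55.1%) and above them in 55 (30.9%). Scaling turned this balance: TMM factors called 41 genes higher and 8 lower in it. Direct comparison with removal replicates 2 to 4 called 1 gene, Scgb2b12 (0.568% of 176), with 27 genes at an unadjusted p under 0.05 and 2 called by DESeq2. Set B minus set A in the response to removal called 0 genes in edgeR, with 21 at an unadjusted p under 0.05 and a smallest adjusted p of 0.190; DESeq2 was not run on that difference.

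The genes lowest in removal replicate 1 relative to the other removal libraries were Bpifa5, Defb3, Uox, Clec2e, Arc and Areg. Bpifa5, of a family of secreted bactericidal proteins, read 1432, 803, 246 and 1227 in naive and 810.4, 1227 and 929 in removal replicates 2 to 4, but 137 in removal replicate 1. The ligature libraries ran from 109 to 182. Its difference from the other removal libraries was -2.85 on the log2 scale (95% interval -4.60 to -1.09; edgeR unadjusted p = 0.00423, adjusted p = 0.214). Defb3, a beta-defensin, read 96.0, 232, 182 and 166 in naive, 224, 327 and 132 in removal replicates 2 to 4 and 61.4 in removal replicate 1. Clec2e, a C-type lectin, read 82.4, 80.7 and 79.1 in removal replicates 2 to 4 and 30.1 in removal replicate 1, but its naive libraries ran from 23.8 to 135. Uox, urate oxidase, read 30.1 in removal replicate 1, 65.9 and 74.2 in replicates 2 and 4 and 233 in replicate 3, above the naive range of 62.0 to 99.3. In none of Bpifa5, Defb3, Clec2e and Uox did removal replicates 2 to 4 pass the test against naive. Pglyrp4, the remaining antimicrobial gene, was 528 ± 131 in naive and 585 ± 22.3 in removal replicates 2 to 4, with 371 in removal replicate 1.

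The genes highest in it were Matn4, Angptl4, Adamts1, Ccer2, Fam81a and Ppp1r3b. Matn4, a matrix adaptor gene, read 189 in removal replicate 1 and 10.3, 6.54 and 11.5 in replicates 2 to 4, yet it followed the sets in every group: 29.5 and 17.4 in naive set A against 284 and 405 in naive set B, and 11.9 in ligature set A against 251 and 189.7 in ligature set B. With a term for the set Matn4 fell after removal by 1.03 on the log2 scale, and its changes were -1.27 in set A and -0.87 in set B. Angptl4, a lipoprotein lipase inhibitor induced by fasting and hypoxia, likewise read 59.1 and 64.9 in naive set A, 173 and 169.6 in naive set B, 89.3 in removal replicate 1 and 20.6, 32.7 and 31.3 in replicates 2 to 4. It was called with a set term (-1.05, edgeR adjusted p = 0.00594) and not without one (adjusted p = 0.0539). Fam81a read 108 in removal replicate 1, 50.5 to 77.4 in the others and 51.0 to 87.1 in naive. Ccer2, at 305, and Ppp1r3b, the glycogen-targeting phosphatase subunit, at 294, lay above the other removal libraries (161 to 185 and 181 to 225) in the direction of the ligature libraries (188 to 419 and 338 to 579). Ccer2 also read higher in set B within the other groups, at 145 and 170.5 against 136 and 98.8 in naive and at 339.6 and 419 against 188 with the ligature in place. With a set term Ccer2 was called higher after removal (0.72, edgeR adjusted p = 0.00594), and without one it was not (adjusted p = 0.104).

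**Figure D5:**
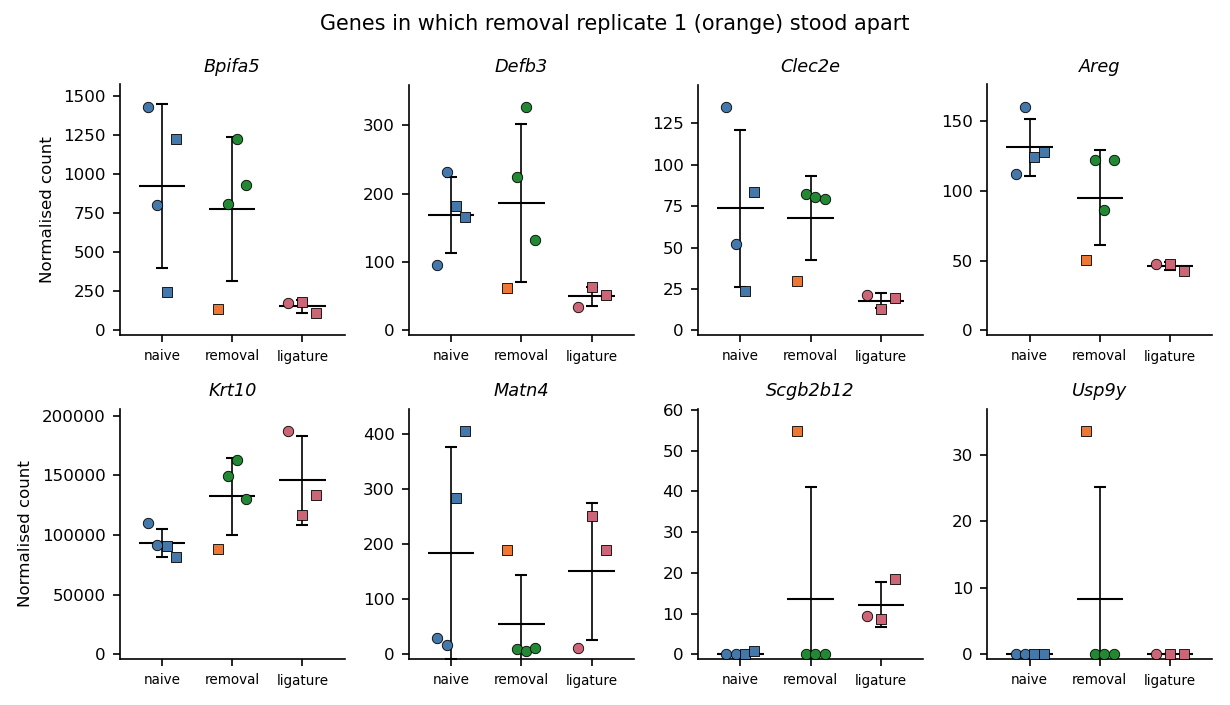
Normalised counts per library of 8 genes in which removal replicate 1 (orange) lay apart from removal replicates 2 to 4 (green), with naive in blue, ligature in rose, circles for set A, squares for set B, lines for group means and bars for the SD (n = 4, 4 and 3). In Bpifa5, Defb3 and Areg the orange point lies near the ligature libraries. In Clec2e it lies above them and inside the naive range. In Matn4 it lies with the squares of set B, and in Scgb2b12 and Usp9y it is the only removal library above 0.

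Markers of other tissues and a Y-linked gene set removal replicate 1 apart as well. Of the 17 salivary gland genes on the marker list, Scgb2b12 and Smr2 were in the table, and no removal library but replicate 1 held reads of either. Scgb2b12, a secretoglobin, had 49 raw counts in removal replicate 1, 0 in removal replicates 2 to 4 and 1 in all naive libraries together, where a count of 0 allows up to 3 counts per library. Smr2, a salivary protein gene, had 7.82 normalised counts in removal replicate 1 and 0 in every other removal and naive library; the filter on low counts left it out. Both were also read in the ligature libraries, at 8.76 to 18.6 and 1.86 to 4.26. Y-linked Usp9y had 30 raw counts in removal replicate 1 and 0 in the other 10 libraries of mice described as male. These counts are at odds with that label. A difference of sex was not tested and cannot be told apart from the library or its set. The summed normalised level of both salivary genes was thus highest in removal replicate 1, the library in which Bpifa5, Defb3 and Areg were low; the part of gland tissue in those values was not tested. Cd68, the only measured gene of 13 macrophage and monocyte markers, was 287 ± 54.6 in naive and 222 ± 14.2 after removal and did not pass the test (log2 change -0.37, edgeR adjusted p = 0.0610). None of the markers on the other 11 cell type lists was in the table.

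The remaining lists held few measured genes. Heat shock chaperones Hspa1a, Hspa1b and Dnajb1 stood at -0.42, -0.20 and -0.29 and did not pass the test, though all 3 were called lower with a set term; Hspa1a and Hspa1b are near-identical copies whose reads the counting could split. In removal replicate 1 Dnajb1 was called, at 4117 against 5057 to 5838 in the other removal libraries and 5407 to 7153 in naive. Of the progenitor list Msi1, an RNA-binding protein gene, was called higher and Lgr6, a stem cell receptor gene, was not (0.24, 95% interval -0.05 to 0.54), except with TMM factors (0.45). Pfkp, the platelet-type phosphofructokinase, and Ppp1r3b, the 2 measured genes of the glycolysis and glycogen list, stood at 0.10 and -0.03 (Pfkp was called with TMM factors, at 0.31), and the lectins Clec2e and Clec2g at -0.12 and -0.07, none of which passed. No gene of the circadian clock list was in the table.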

How the data were processed

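Per the submitters' processing notes, the authors used cutadapt 2.10, TopHat2 2.1.1, HTSeq 2.01 and DESeq2 1.36.0 with the mouse build GRCm39, with no role or setting given for any of them. The deposited table held 993339 rows, of which 178 named a gene, and gave 3 values per library: raw counts, a normalised signal that equals the raw count divided by a size factor of the library, and a batch-corrected value made by the authors. Corrected values were used only to read which libraries were corrected together: of 957 divisions of the libraries in 2 sets the best left a median residual of 4.2e-05% and the next 1.71%. The labels name no batch.

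Raw counts were tested with edgeR 4.0.16 in R 4.3.3 (quasi-likelihood F test, two-sided) over all 11 libraries with 1 mean per group, and again with removal replicate 1 as a group of its own. Libraries were scaled by the deposited size factors, since the table holds only part of the transcriptome. The default filter on low counts kept 176 genes (Smr2 and Usp9y were left out), and p-values were adjusted by Benjamini-Hochberg over all of them and called under 0.05. Intervals are 95%. Table sums of 282274 to 503570 counts per library are not depths. Replicates of a group differed by more than counting noise (chi-square per degree of freedom at least 20.8), and none was merged. Scripts were tested on simulated data.

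The members and the gene lists (30 lists, 17 of pathways and 13 of cell types, 514 genes, 64 of them in the table) were chosen with earlier results of these data known. Named genes were the 10 largest rises and falls among called genes with a mean normalised count of at least 20, the 2 called members of each pathway list with the smallest p, every marker of a cell type list in the table, and the 6 genes highest and lowest in removal replicate 1 against the others, leaving out predicted models; further genes were named after their values were seen. A gene that this rule names is not reported here. Alternatives were TMM and median-of-ratios factors, DESeq2 1.42.0, no filter, a filter of at least 50 counts in 4 libraries, the 8 libraries alone, a term for the library set, a replicate block, each library left out, and, added after seeing the data, the set term with TMM factors. Promoters are from RefSeq (GRCm38.p6); the build of the counts is GRCm39, so no gene coordinates are given for it.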

Additional observations from a re-analysis of the deposited data

Results flagged for a closer look

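In 8 of 92 gene-by-group sets of 4 libraries, 1 library lay so far from the other 3 that its gap to the nearest, as a share of the group's range, exceeded Dixon's 95% critical value for 4 samples; in groups not chosen for it, chance gives about 1 in 20. The sets come mostly from the named genes, 12 of which were named because removal replicate 1 was highest or lowest in them, Matn4 and Clec2e among them, so the number of sets found is no test of that library. In 5 of the 8 the outlying library was removal replicate 1. Matn4 was 188.71 normalised counts in it and 6.54 to 11.535 in the other removal libraries, Clec2e was 30.148 against 79.094 to 82.383, and Arhgap18 was 261.29 against 182.91 to 194.02. Scgb2b12 was 54.714 and Smr2 7.816 in it, each against 0 in the other removal libraries. Scgb2b12 was also 0.879 in naive replicate 4, which is 1 read, against 0 in the other naive libraries. Naive replicate 1 was above the other naive libraries in Mki67, at 3653.1 against 3327.7 to 3364.6, and in Vegfa, at 1462.1 against 1319.8 to 1342.8.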

How the results depend on the processing

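For removal against naive (66) the set term gave 126 calls, leaving out 1 library gave 38 to 78, and no other setting moved the count by over 1.5 times. For removal replicates 2 to 4 (50) the set term gave 85 and leaving out 1 library gave 0 to 61; the count was 28 without naive replicate 2, 32 without removal replicate 4, 7 without removal replicate 2, and 0 without naive replicate 4 or removal replicate 3. For removal replicate 1 against naive (22) TMM factors gave 49, median-of-ratios factors 44, DESeq2 65, the set term 41, the set term with TMM factors 54, and leaving out 1 library 8 to 53. For removal replicate 1 against replicates 2 to 4 (1 call) DESeq2 gave 2, leaving out 1 library 1 to 2, and edgeR gave 0 with the filter of 50 counts, with the 8 libraries alone and with the set term (25, 27 and 16 genes at an unadjusted p under 0.05). The cause was not tested in any of these. A replicate block gave 49, 54, 62 and 8 calls in the 4 comparisons. Same-numbered naive and removal libraries deviated from their group means with correlations of -0.43, 0.46, -0.37 and 0.04. For replicates 1, 3 and 4 the naive and the removal library are of different sets. Across sets the correlations ran from -0.56 to 0.04 over all numbers, and within a set from 0.02 to 0.59. Set and number are thus mixed, and these values cannot decide whether the numbers pair the libraries. Of the 45 named genes 31 were called as reported, and none of these changed direction in any setting run; of these 31, 26 were called with TMM factors and 31 with the set term, and 21 were called whichever library was left out. The table holds part of each library, so depth beyond it is unknown.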
